A study of Rattus norvegicus with 6 samples.

Results

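Transcripts of ion channel subunits were examined in cultured rat dorsal root ganglion cells after a day in lidocaine. The members were the rows of the deposited table whose symbol began with 1 of 25 channel gene prefixes, from the voltage-gated families Scn, Cacn and Kcn to the receptor families Grin, Gabr and P2rx. Of 35 such rows, Kcnj8 and Trpc6 were left out as vascular genes, which left 33 members among 2125 listed genes. Cells were taken from every dorsal root ganglion of Sprague Dawley rats weighing 120 g and kept as primary cultures, which were exposed to 5 mM lidocaine hydrochloride for 24 hours (3 libraries) or were left untreated (3 libraries). Both groups came from the same kind of culture in neurobasal medium, the age of the rats was not used here, and no label ties the replicates to different cultures or animals. The p-values thus describe the spread among these 6 libraries, which may be technical.

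Ion channels set the excitability of sensory neurons. Voltage-gated sodium and calcium channels carry depolarizing current and trigger transmitter release, potassium channels restore and hold the resting potential, and transient receptor potential (TRP), glutamate, GABA-A and P2X channels turn heat, stretch, transmitters or extracellular ATP into current. Many of these channels also work outside neurons, in the satellite glia, Schwann cells and macrophages of the ganglion. Lidocaine is a local anaesthetic that blocks the pore of voltage-gated sodium channels.

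Both tables hold genes picked by the authors for their fold change and p-value in these same libraries, so a high share of called members was fixed by that selection. In the authors' deposited table, 27 members were lower and 6 were higher with lidocaine, and the member nearest to the limit of selection was Grin2a, with a log2 fold change of −1.004. Prefixes with members numbered 11. The other 14, among them Hcn, Trpm, Gria, Chrna, Asic and Piezo, gave no member, and genes without a row have no value here. Of the 272 protein-coding genes of a reference table that carry the prefixes, 12.9% had a row, beside 7.40% of all protein-coding symbols in that table. Recovered reads in the listed genes numbered 2453051 to 2631083 per lidocaine library and 2710887 to 3592141 per control library, which is less than the depth of a library, since other genes are not counted in it. The labels call the cells neurons. Of 20 markers fixed for sensory neurons, Ina, Gap43, Elavl2 and Elavl4 had a row and were expressed in all 6 libraries, and the other markers could not be checked.

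Of the 33 members, all of them preselected as changed, 28 had a mean of at least 10 normalized reads (reads scaled by the authors for library depth) and entered the test, and 23 of these fell (68.6% of the 1851 listed genes kept did) and 5 rose (30.9%; limma with a variance trend, Benjamini-Hochberg adjustment over all listed genes kept, threshold 0.05). All 28 passed, beside 99.5% of the genes kept. The adjustment ran over genes selected as changed in these same libraries, so the adjusted p-values given here are too small. Adjusted as for 47357 reference genes, 24 of the 28 passed. The falling members made up 82.1% of the called members, beside 68.9% of all called genes, a difference that was not tested. The median log2 fold change was −1.33 over the 28 members and −1.25 over all genes kept. The groups did not overlap in 27 of the 28, beside 98.4% of the genes kept, and Gabrg3 was the exception. At least 4-fold falls were seen in 4 members, Grin2b, Kcnj2, P2rx7 and Kcne3, beside 21.7% of the genes kept. With 3 libraries a group the smallest exact permutation p is 0.1, so each call rests on the spread that limma shares across genes. In bulk RNA, fewer cells of a type and less RNA per cell cannot be told apart.

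**Figure D1:**
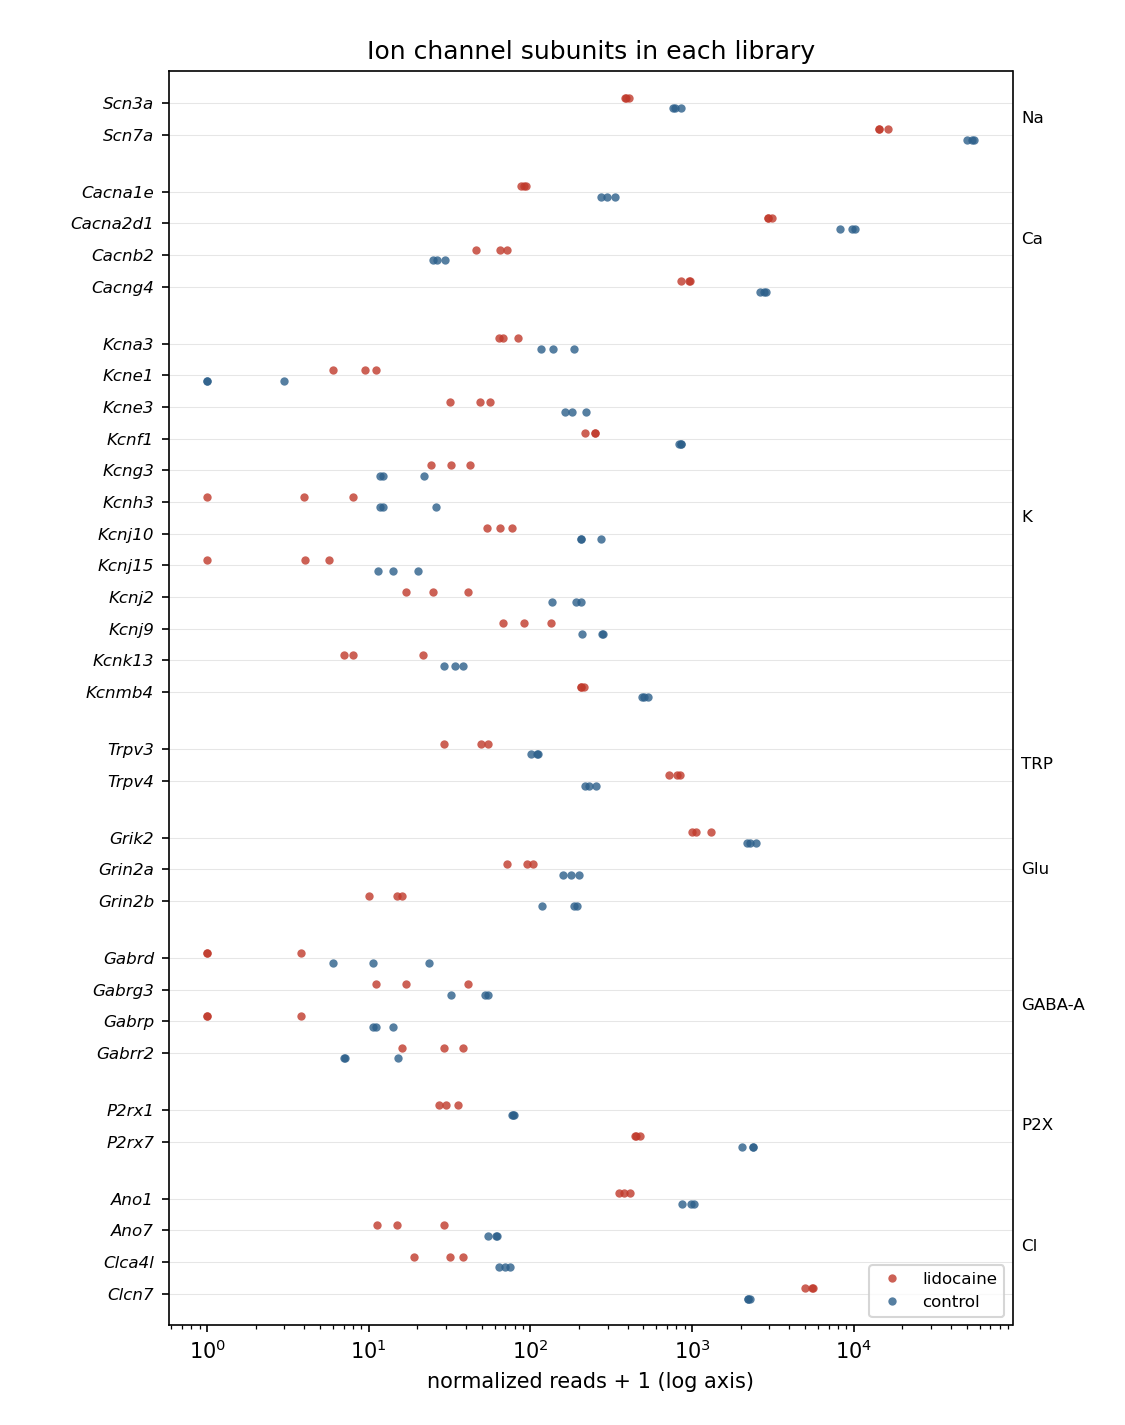
Normalized reads plus 1 (log axis) of the 33 ion channel subunits in each library, lidocaine in red above control in blue, grouped by family (labels at the right). Lidocaine points lie left of the control points for most members and right of them for Trpv4, Clcn7, Cacnb2, Kcng3, Gabrr2 and Kcne1, and only Gabrg3 overlaps.

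The fold changes depend on the scaling of the libraries. Rescaling the listed genes by the trimmed mean of M values (TMM) or by the median of ratios moved the log2 fold changes of all genes up by a median of 1.26 and 1.17, because both methods centre a gene list that is mostly lower. Under TMM 10 members were called lower, beside 26.5% of all genes kept, and 6 higher, beside 34.1%, and 12 did not pass. With the median of ratios 10 members were called lower, beside 29.8%, and 5 higher, beside 32.0%, and 13 did not pass. Scn7a, Cacna2d1, Cacna1e, Cacng4, Kcnf1, Kcnj2, Kcnj10, Kcne3, P2rx7 and Grin2b were called lower, and Trpv4, Clcn7, Cacnb2, Gabrr2 and Kcng3 higher, under the authors' scaling and both of these. For the higher members this was fixed by the upward move of both rescalings and is no added support. Limits of the calls of Gabrr2 and Kcng3 are given with these genes.

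**Figure D2:**
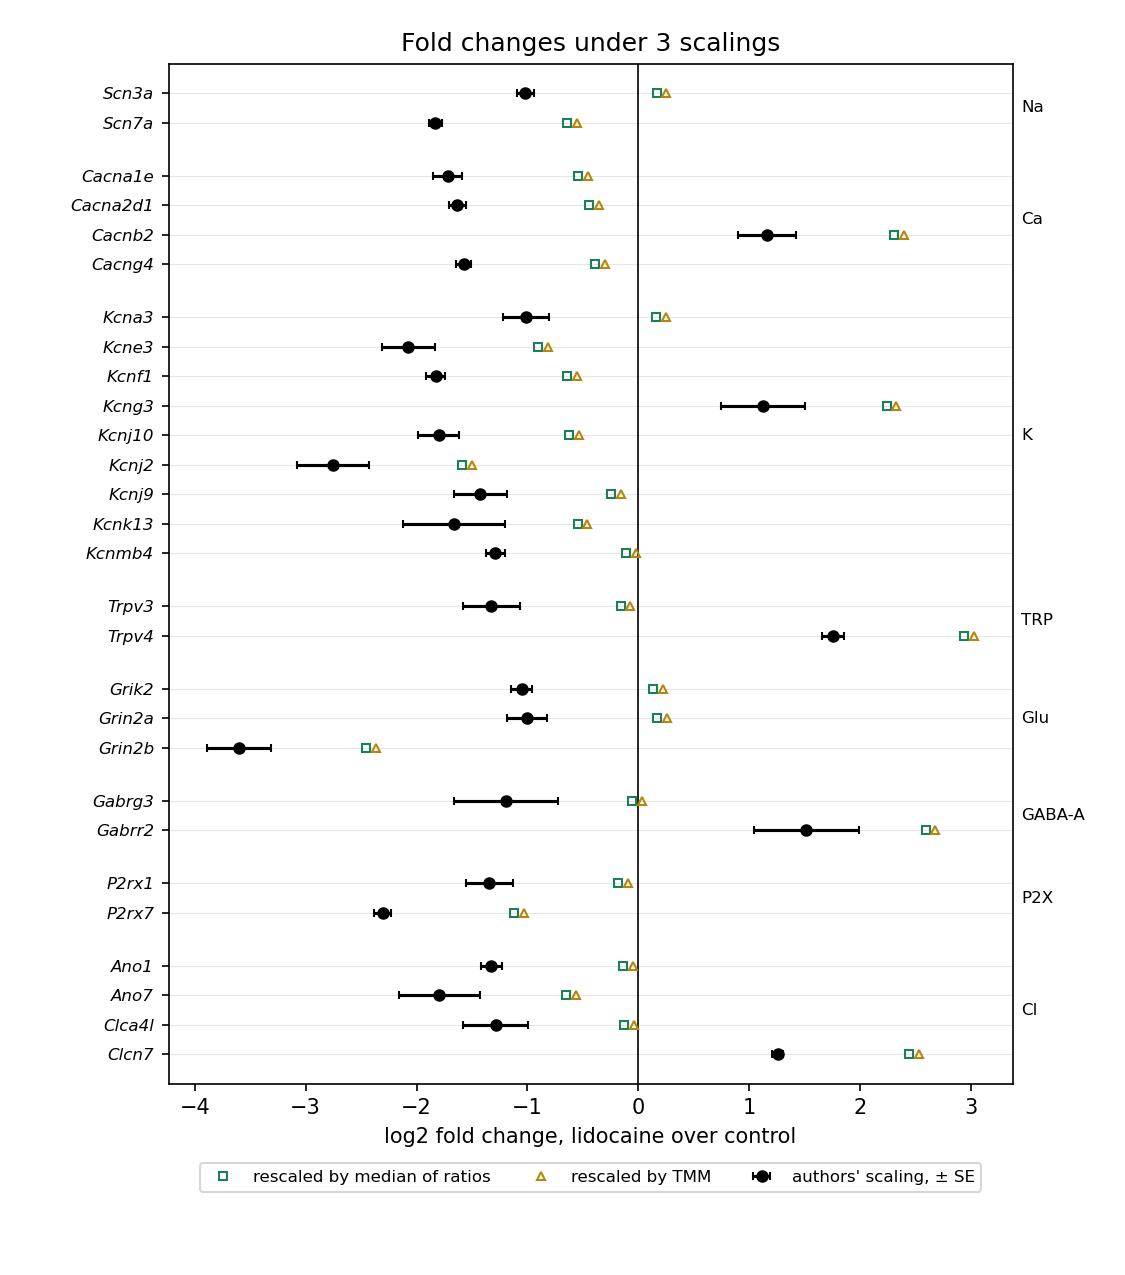
Log2 fold change (lidocaine over control) of the 28 members that entered the test, under the authors' scaling (black, bars are the SE, n = 3 per group) and after rescaling by the median of ratios (squares) or TMM (triangles). Both rescalings move every point to the right, and Scn3a, Grik2, Grin2a and Kcna3 cross 0 under both, while Gabrg3 crosses 0 under TMM.

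Per unit of transcript length, a few members held most of the summed level of the 33 members, and channel genes without a row are not in that sum. Levels are given here as FPKM (fragments scaled by gene length and library depth). Scn7a, the sodium-sensing relative of the voltage-gated sodium channels, averaged 61.0 ± 4.45 FPKM with lidocaine and 213 ± 12.04 FPKM in control (SD, n = 3 each) and was the highest member in both groups. It made up 39.4 to 42.2% of the summed FPKM of the 33 members in lidocaine libraries, against 59.9 to 60.3% in control libraries. Clcn7, a chloride and proton exchanger of the lysosome, held 26.5 to 28.3% with lidocaine and 4.50 to 5.13% in control. A share within a library does not depend on that library's scaling, and neither pair of ranges overlapped. The summed FPKM of all members was 143 to 157 in lidocaine libraries and 332 to 372 in control libraries, and without Scn7a it was 85.1 to 90.7 with lidocaine and 132 to 149 in control.

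The order of levels also differed. With lidocaine, Scn7a was followed by Clcn7 (40.9 ± 2.50 FPKM) and Cacna2d1 (15.5 ± 0.572 FPKM), and then by Trpv4, Cacng4 and Grik2 at 5.13 ± 0.410, 4.90 ± 0.344 and 4.72 ± 0.685 FPKM, which lay within each other's spread. In control, Scn7a was followed by Cacna2d1 (47.6 ± 5.41 FPKM), Clcn7 (16.8 ± 0.175 FPKM), Cacng4 (14.4 ± 0.602 FPKM) and P2rx7 (12.2 ± 1.17 FPKM). Trpv4 stood 4th with lidocaine and 15th in control, and Grin2b stood 29th with lidocaine and 20th in control. Between 20 and 22 members were at or under 1 FPKM in lidocaine libraries, against 17 or 18 in control libraries.

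**Figure D3:**
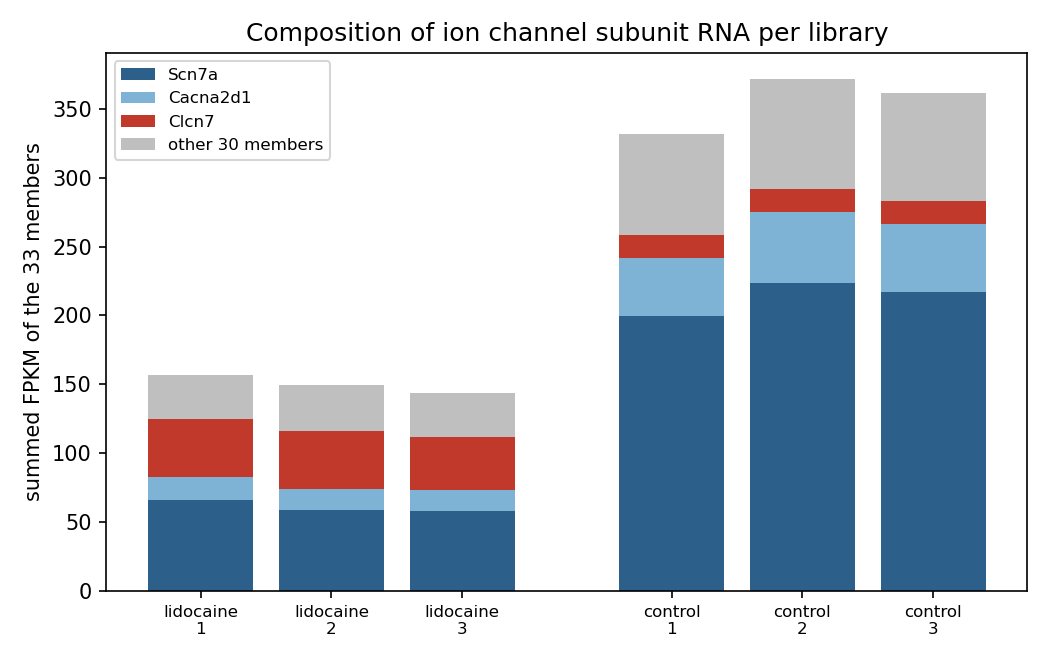
Stacked bars of the summed FPKM of the 33 members in each library, split into Scn7a, Cacna2d1, Clcn7 and the other 30 members. The lidocaine bars reach 143 to 157 and the control bars 332 to 372, and the Clcn7 segment is larger and the Scn7a segment smaller in every lidocaine bar.

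The start regions of 3 members are shown, because Clcn7 and Trpv4 were the abundant members that rose and Scn7a was the most abundant one that fell. Each window runs from 250 bases before to 50 bases after the annotated start (RefSeq, build GRCr8, which differs from the build rn6 of the deposited data), 5′ to 3′ on the gene's strand. Capitals mark CACGTG (the E-box, read by basic helix-loop-helix factors) in Clcn7 and GGGCGG or its reverse complement (the GC box, read by Sp factors) in Trpv4 and Scn7a.
Clcn7 at chr10:14656011-14656310, plus strand: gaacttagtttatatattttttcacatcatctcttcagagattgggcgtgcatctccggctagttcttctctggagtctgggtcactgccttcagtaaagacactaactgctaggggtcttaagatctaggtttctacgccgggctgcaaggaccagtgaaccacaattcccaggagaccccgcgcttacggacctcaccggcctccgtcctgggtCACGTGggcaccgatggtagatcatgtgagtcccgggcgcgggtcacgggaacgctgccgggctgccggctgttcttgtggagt
Trpv4 at chr12:47598938-47599237, plus strand: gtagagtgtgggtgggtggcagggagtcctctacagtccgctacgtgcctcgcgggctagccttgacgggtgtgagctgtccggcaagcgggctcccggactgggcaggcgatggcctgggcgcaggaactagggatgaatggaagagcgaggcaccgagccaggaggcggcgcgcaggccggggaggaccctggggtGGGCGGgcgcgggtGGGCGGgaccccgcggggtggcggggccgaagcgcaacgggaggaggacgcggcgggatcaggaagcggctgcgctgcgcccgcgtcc
Scn7a at chr3:71846235-71846534, minus strand: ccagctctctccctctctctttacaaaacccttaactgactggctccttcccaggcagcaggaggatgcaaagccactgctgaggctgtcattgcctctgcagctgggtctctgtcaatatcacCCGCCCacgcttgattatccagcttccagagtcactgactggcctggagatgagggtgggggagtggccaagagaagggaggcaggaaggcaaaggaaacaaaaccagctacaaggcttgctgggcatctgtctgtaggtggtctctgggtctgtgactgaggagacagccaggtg
Of the 33 members, 28 had at least 1 such window. A member was counted once if any of its windows held a match, whereas the shares over all windows count each window. The member counts and these shares are thus unlike measures. On either strand, CACGTG was found among the members in Clcn7 and Trpv3, a rising and a falling one, and in 6.42% of all 33469 windows of the table. GGGCGG was found in 14 of the 28 members and in 33.1% of all windows. TGACGTCA (the cyclic AMP response element) and TGATGNAA (the ATF4 element) were found in 0 of the 28, and in 1.83% and 3.98% of all windows. TGANTCA (the AP-1 element) was found in Clca4l, Kcne1, Scn3a and Trpv3 and in 7.33% of all windows. None of the marked runs overlaps another motif searched, and a match describes letters only.

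Both sodium channel genes with a row fell. Scn7a had 16200.0, 14379 and 14317 normalized reads in the lidocaine libraries, against 50033, 55538 and 53940.4 in the control libraries. Every lidocaine value lay far under every control value, a 3.56-fold fall with log2 −1.83 ± 0.06 (SE, 3 libraries a group), with a Benjamini-Hochberg adjusted p of 1.47e-09 by limma. In rats Scn7a is made by Schwann cells as well as neurons. Scn3a encodes a fast sodium channel of embryonic neurons that returns in rat sensory neurons after nerve injury. It had 408, 391 and 383 normalized reads with lidocaine and 766, 780.2 and 855 in control. The groups were apart, and the log2 fold change was −1.02 ± 0.08 (limma, Benjamini-Hochberg adjusted p = 7.37e-07), but it turned to 0.25 under TMM, where it was called higher, and to 0.16 with the median of ratios.

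Among the calcium channel genes, 3 fell and Cacnb2 rose. Cacna2d1, the auxiliary subunit that binds gabapentin and carries channels to the membrane, had 3134, 2947 and 2951 normalized reads with lidocaine, against 8210.4, 10205 and 9712 in control. Control replicate 1 was the lowest control library and still stood above all lidocaine libraries (log2 fold change −1.63 ± 0.08, limma, Benjamini-Hochberg adjusted p = 1.81e-08). Cacng4, a transmembrane regulator of AMPA receptors from the gamma subunit family, had 853, 976 and 952 normalized reads with lidocaine and 2784, 2867 and 2638 in control. The groups did not overlap, and the fall was 2.98-fold (limma, Benjamini-Hochberg adjusted p = 1.03e-08). Cacna1e, the pore of the R-type calcium channel, had 90.0, 87.0 and 93.3 normalized reads in lidocaine libraries, and 295, 273 and 332 in control libraries. The lidocaine libraries lay close together and all under control, a 3.29-fold fall (limma, Benjamini-Hochberg adjusted p = 5.92e-07). Cacnb2, a cytoplasmic beta subunit that supports the opening and trafficking of the pore, averaged 60.1 ± 13.4 normalized reads with lidocaine and 25.9 ± 2.24 in control (SD, n = 3 each). It rose 2.24-fold (limma, Benjamini-Hochberg adjusted p = 0.00179). With adjustment as for all reference genes Cacnb2 was just under the threshold (limma, Benjamini-Hochberg adjusted p = 0.0459).

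Potassium channel genes formed the largest family, with 12 members. Of these 9 entered the test, 8 fell and Kcng3 rose. Among the inward rectifiers, Kcnj2, which holds the resting potential, had 40.0, 15.9 and 24.1 normalized reads with lidocaine, against 134, 205 and 190.5 in control. Its 6.74-fold fall was the largest of the potassium channels tested (log2 fold change −2.75 ± 0.32, limma, Benjamini-Hochberg adjusted p = 2.09e-05). Kcnj10, the rectifier by which satellite glia take up potassium, had 53.0, 75.8 and 64.2 normalized reads with lidocaine and 205, 271 and 203 in control. All lidocaine libraries were lower, by 3.49-fold (limma, Benjamini-Hochberg adjusted p = 8.10e-06). Kcnj9, a subunit of G protein-gated rectifiers, had 67.0, 133 and 90.3 normalized reads with lidocaine, against 207, 275 and 279.7 in control. Lidocaine replicate 2 was the highest of its group and still under every control library, with a log2 fold change of −1.42 ± 0.24 (limma, Benjamini-Hochberg adjusted p = 0.000275) that moved to −0.16 under TMM and −0.25 with the median of ratios and then did not pass.

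Among voltage-gated subunits, Kcnf1, an electrically silent modifier that assembles with other pore subunits, had 215, 249 and 249.9 normalized reads with lidocaine, against 849, 852 and 834 in control. The control libraries differed little, and all lidocaine libraries were lower, by 3.55-fold (limma, Benjamini-Hochberg adjusted p = 2.38e-08). Kcna3, a delayed rectifier best known from T lymphocytes, had 67.0, 82.3 and 63.2 normalized reads with lidocaine and 115, 186 and 136 in control. Its log2 fold change of −1.01 ± 0.21 (limma, Benjamini-Hochberg adjusted p = 0.00111) turned to 0.25 under TMM and to 0.16 with the median of ratios, neither past the threshold. Kcng3, another silent modifier, averaged 31.8 ± 8.83 normalized reads with lidocaine and 14.3 ± 5.82 in control (SD, n = 3 each). It rose 2.18-fold (limma, Benjamini-Hochberg adjusted p = 0.0159), but the call was lost without lidocaine replicate 1 (adjusted p = 0.0600), without control replicate 1 (0.0511) and without control replicate 2 (0.0518; limma, Benjamini-Hochberg). Adjustment as for all reference genes also lost the call of Kcng3 (limma, Benjamini-Hochberg adjusted p = 0.407).

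Of the auxiliary potassium channel subunits, Kcnmb4, a beta subunit of the large-conductance calcium-activated channel, had 213, 206 and 205 normalized reads with lidocaine, against 491, 502 and 535 in control. The groups were tight and apart, a 2.44-fold fall (limma, Benjamini-Hochberg adjusted p = 3.37e-07), with a log2 fold change that moved to −0.02 under TMM and −0.11 with the median of ratios and no longer passed. Kcne3, a single-span subunit that alters the gating of its partner channel, had 31.0, 47.7 and 55.2 normalized reads in lidocaine libraries and 219.7, 179 and 163 in control libraries. All lidocaine libraries were lower, by 4.21-fold (limma, Benjamini-Hochberg adjusted p = 1.61e-05). Its relative Kcne1 was under the limit for the test, with 24 recovered reads over the lidocaine libraries and 2 over the control libraries. The depth-corrected ratio was 11.7, with an exact 95% interval of 2.91 to 102 that covers counting error only. Kcnk13, a background channel of the tandem pore domain family, averaged 11.2 ± 8.14 normalized reads with lidocaine and 32.9 ± 4.72 in control (SD, n = 3 each), a 3.16-fold fall (limma, Benjamini-Hochberg adjusted p = 0.00620) that did not pass after either rescaling or with adjustment as for all reference genes (adjusted p = 0.159). Kcnh3 and Kcnj15, an ether-a-go-go type channel and an inward rectifier, were too low to test, with 10 and 8 recovered reads over the lidocaine libraries, against 47 and 42 over the control libraries. The ratios, control over lidocaine, were 4.82 (exact 95% interval 2.40 to 10.7) and 5.38 (2.50 to 13.3). Kcne1, Kcnh3 and Kcnj15 were selected as changed in these same libraries, which favours ratios far from equality.

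The TRP channels with a row went opposite ways. Trpv4, a cation channel opened by osmotic swelling, warmth and lipids, had 718, 811 and 842 normalized reads with lidocaine, against 230.2, 252 and 217 in control. Each lidocaine library held more than any control library, and the rise of 3.38-fold was the largest among the members tested (log2 fold change 1.76 ± 0.10, limma, Benjamini-Hochberg adjusted p = 6.46e-08). Trpv3, a warmth-activated channel best known from keratinocytes, had 28.0, 53.3 and 48.2 normalized reads with lidocaine and 108, 99.4 and 110.3 in control. It was lower in all lidocaine libraries, with a log2 fold change of −1.33 ± 0.26 (limma, Benjamini-Hochberg adjusted p = 0.000708) that moved to −0.07 under TMM and −0.16 with the median of ratios and then did not pass.

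All 3 ionotropic glutamate receptor subunits with a row fell under the authors' scaling, and the falls were unequal. Grin2b, the glutamate-binding NMDA receptor subunit of slow kinetics, had 15.0, 14.0 and 9.03 normalized reads with lidocaine, against 118, 185 and 193 in control. No lidocaine library came near a control library, and the 12.1-fold fall was the largest of all members tested (log2 fold change −3.60 ± 0.29, limma, Benjamini-Hochberg adjusted p = 1.16e-06). Grin2a, the faster NMDA receptor subunit of mature neurons, had 102, 70.2 and 94.3 normalized reads with lidocaine and 157, 200.1 and 176 in control. It fell 2.01-fold without overlap (limma, Benjamini-Hochberg adjusted p = 0.000442), yet turned to a log2 fold change of 0.26 under TMM and 0.17 with the median of ratios. Grik2, a kainate receptor subunit, had 1303, 1063 and 998 normalized reads with lidocaine, against 2181, 2286 and 2480.1 in control. Its log2 fold change was −1.05 ± 0.10 (limma, Benjamini-Hochberg adjusted p = 3.43e-06), and it turned to 0.22 under TMM and 0.13 with the median of ratios, neither past the threshold.

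GABA-A receptor genes were few in reads. Gabrr2, a rho subunit that forms slow receptors of its own, averaged 26.7 ± 11.0 normalized reads with lidocaine and 8.77 ± 4.70 in control (SD, n = 3 each), a 2.86-fold difference (limma, Benjamini-Hochberg adjusted p = 0.0117). It passed the filter on low values only through the lidocaine libraries, and its call was lost at a threshold of 0.01. With adjustment as for all reference genes its call was lost too (limma, Benjamini-Hochberg adjusted p = 0.299). Gabrg3, a gamma subunit, had 40.0, 15.9 and 10.03 normalized reads with lidocaine, against 31.4, 53.3 and 51.1 in control. Lidocaine replicate 1 lay above control replicate 1, so the groups overlapped. The call (log2 fold change −1.19 ± 0.47, limma, Benjamini-Hochberg adjusted p = 0.0323) was lost without lidocaine replicate 2 or 3 and without control replicate 2 or 3 (adjusted p = 0.0864, 0.116, 0.102 and 0.102; limma, Benjamini-Hochberg), and the log2 fold change turned to 0.03 under TMM. Adjustment as for all reference genes also lost the call of Gabrg3 (limma, Benjamini-Hochberg adjusted p = 0.827). Gabrd, a subunit of receptors outside synapses, and Gabrp, a subunit of epithelia, were under the limit for the test. Each had 3 recovered reads over the lidocaine libraries, all in replicate 2, against 35 reads of Gabrd and 32 of Gabrp over the control libraries. The ratios, control over lidocaine, were 11.96 (exact 95% interval 3.77 to 60.8) and 10.9 (3.42 to 55.8). Gabrd and Gabrp were selected as changed in these same libraries, which favours ratios far from equality.

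Both P2X receptors with a row, cation channels opened by extracellular ATP, fell. P2rx7, which responds to high ATP and is known from macrophages and satellite glia, had 476, 446 and 446 normalized reads with lidocaine, against 2020.1, 2388 and 2385 in control. The lidocaine libraries were close to each other and far under control, a 4.94-fold fall (log2 fold change −2.31 ± 0.08, limma, Benjamini-Hochberg adjusted p = 2.79e-09). P2rx1, a fast receptor of smooth muscle and platelets, averaged 29.9 ± 4.34 normalized reads with lidocaine and 76.9 ± 0.961 in control (SD, n = 3 each). It fell 2.54-fold (limma, Benjamini-Hochberg adjusted p = 0.000206) and did not pass after either rescaling, at −0.09 under TMM and −0.18 with the median of ratios on the log2 scale.

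Of the genes named for chloride channels, Clcn7 rose and the other 3 fell. Clcn7, which exchanges chloride for protons across the lysosomal membrane and is not a plasma membrane channel, had 5558, 5541 and 5011 normalized reads with lidocaine, against 2282, 2230.4 and 2226 in control. The control libraries were nearly equal and the lidocaine libraries all above them (log2 fold change 1.26 ± 0.05, limma, Benjamini-Hochberg adjusted p = 9.51e-09). Ano1, the calcium-activated chloride channel that also responds to heat in nociceptors, had 377, 353 and 414 normalized reads with lidocaine and 869, 978 and 1023 in control. It fell 2.50-fold without overlap (limma, Benjamini-Hochberg adjusted p = 3.72e-07), but the log2 fold change moved to −0.05 under TMM and −0.14 with the median of ratios and did not pass there. Ano7, another anoctamin, averaged 17.5 ± 9.39 normalized reads with lidocaine and 58.2 ± 4.25 in control, and Clca4l, from a family of secreted regulators of chloride current, averaged 28.6 ± 9.66 and 68.6 ± 5.48 in the same order (SD, n = 3 each). They fell 3.47-fold and 2.44-fold (limma, Benjamini-Hochberg adjusted p = 0.000987 and 0.00194), neither of which passed after either rescaling. With adjustment as for all reference genes Clca4l was just under the threshold (limma, Benjamini-Hochberg adjusted p = 0.0496). Clca4l has close relatives in the genome, and the sources used here do not say how reads were divided between them.

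Because the scaling of a library cancels in a ratio of 2 of its genes, 3 ratios between members were computed, chosen after the values were seen. Grin2a over Grin2b was 6.80, 5.00 and 10.4 in the lidocaine libraries, against 1.33, 1.08 and 0.912 in the control libraries. Trpv4 over Trpv3 was 25.6, 15.2 and 17.5 with lidocaine and 2.13, 2.54 and 1.96 in control. Cacnb2 over Cacna1e was 0.711, 0.817 and 0.484 with lidocaine and 0.0858, 0.104 and 0.0725 in control. The ratios were higher with lidocaine, which the choice of the pairs fixed, so no test is given, and the log2 ratios, taken after adding 1 read to each value, differed by 2.59, 3.08 and 2.88, lidocaine minus control.

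**Figure D4:**
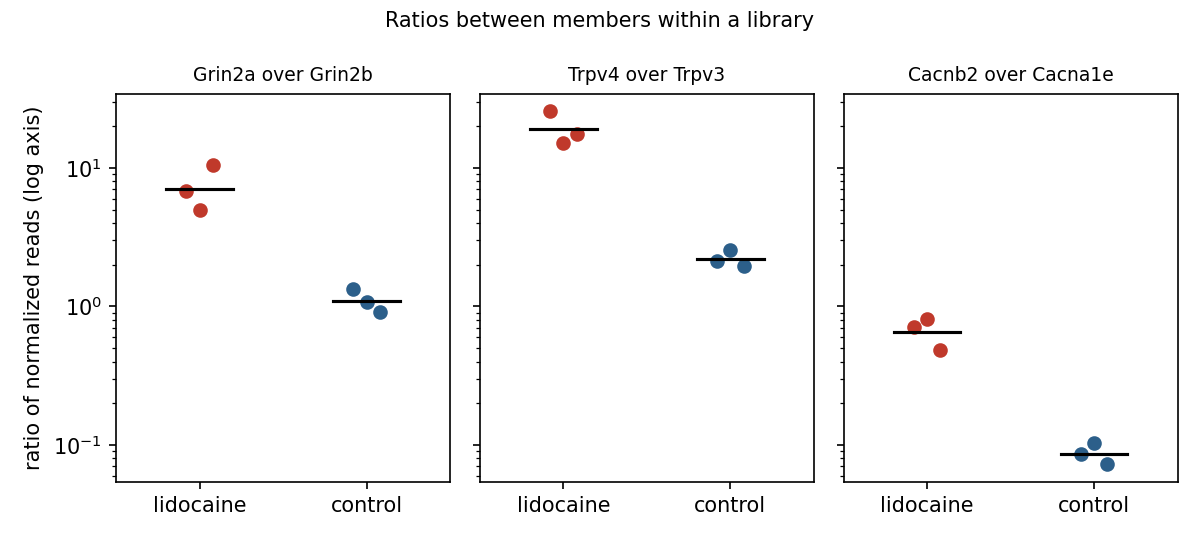
Ratio of normalized reads of 2 members within each library (log axis shared by the panels), lidocaine in red and control in blue, with the geometric mean as a bar, for Grin2a over Grin2b, Trpv4 over Trpv3 and Cacnb2 over Cacna1e. All lidocaine points lie above all control points in each panel.

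Genes around the channels were taken from 3 lists. Of a list of 69 symbols for pore-forming channels outside the prefixes, 10 had a row and 9 were tested, of which 5 fell and 4 rose (median log2 fold change −1.03, beside −1.25 over all genes kept). The list also held the calcium sensors Stim1 and Stim2, which form no pore, and Scnn1a, which carries the prefix Scn. None of these had a row. Mcoln3, a cation channel of endosomes and lysosomes, rose 5.05-fold, Pkd2l1, a polycystin channel, 2.97-fold and the connexin Gjb1 2.37-fold. The other gene that rose, Gja3, averaged 37.5 normalized reads with lidocaine and 8.17 in control. Gja3 passed the filter on low values only through the lidocaine libraries. The proton channel Otop1 fell 3.39-fold, and the water channel Aqp1 and the ryanodine receptor Ryr3 fell 2.05-fold and 2.05-fold, although both turned higher after either rescaling. The water channel Aqp4 was too low to test, at 0 in all 3 lidocaine libraries and 5.20 ± 1.82 normalized reads in control (SD, n = 3). Of a list of 83 symbols for channel partners and clustering proteins, in which some genes also stand under an alias, 10 had a row, of which 7 fell and 3 rose (median −1.08). Gldn and Ank3, which gather sodium channels at nodes and axon initial segments, fell 40.8-fold and 2.12-fold, Lgi4, a Schwann cell ligand needed for myelination, 3.09-fold, Nlgn3, a synaptic adhesion protein, 3.14-fold and the calcium channel adaptor Stac2 2.10-fold, with Ank3 and Stac2 higher after either rescaling. Lypd6, a modulator of nicotinic receptors, rose 23.7-fold.

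Of 35 pumps and exchangers that set ion gradients, 7 had a row and 6 were tested, of which 5 fell and Slc9a2, a sodium and proton exchanger, rose 3.35-fold (median −2.83). Slc9a2 averaged 28.6 normalized reads with lidocaine and 8.55 in control (limma, Benjamini-Hochberg adjusted p = 0.00599). It passed the filter on low values only through the lidocaine libraries. The sodium pump beta subunit Atp1b2 fell 6.25-fold, the pump regulator Fxyd1 fell 7.66-fold, and the plasma membrane calcium pump Atp2b4 fell 6.57-fold. Fxyd3 was at 0 in at least 1 lidocaine library and averaged 8.05 ± 6.98 normalized reads with lidocaine and 43.3 ± 6.65 in control (SD, n = 3 each). Fxyd3, counted among the 5 that fell, passed the filter on low values only through the control libraries. The calls of these lists are from the same fit (limma, Benjamini-Hochberg, adjusted over all genes kept), and their members with a row had been selected by the authors as changed. Over all genes kept, 68.6% were called lower and 30.9% higher.

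Marker lists of 6 cell types were examined, and every marker with a row was lower with lidocaine by the authors' scaling. These rows had been selected by the authors as changed, so an unchanged marker could not appear. Of all 1851 listed genes kept, 68.6% were called lower. Of 15 Schwann cell markers 7 had a row and all 7 fell, with summed normalized reads of 29412 to 31349 in lidocaine libraries and 119286 to 124455 in control libraries. This list holds Scn7a and Gldn. Of 9 satellite glia markers 5 had a row and fell (3903 to 4073 with lidocaine, 18883 to 19324 in control), and this list holds Kcnj10. Of 14 macrophage markers 12 had a row and fell (1264 to 1378 with lidocaine, 11344 to 11948 in control), with Cd163 and Cx3cr1 at 0 in at least 1 lidocaine library. For fibroblasts the numbers were 5 of 9 (31434 to 32356 with lidocaine, 115033 to 125869 in control), and for endothelial and mural cells 8 of 11 (3846 to 4158 with lidocaine, 13090.3 to 13520 in control), with Acta2 at 0 in at least 1 lidocaine library. The 4 sensory neuron markers summed to 31900 to 34351 with lidocaine and 69985 to 72649 in control. The list medians on the log2 scale were −2.16, −1.85, −3.75, −1.65, −1.75 and −1.22 in the order given here. Cd163, Cx3cr1 and Acta2 averaged 2.56, 3.28 and 5.68 normalized reads with lidocaine and passed the filter on low values only through the control libraries. Rescaling turned Gap43, Elavl4 and Pdgfrb higher under both methods and Col5a2 under TMM. The part of these cell types in the results on the channels was not tested.

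In the authors' own annotation, 28 of the 33 members carried the term ion channel activity, and the others, P2rx1, P2rx7, Grin2a, Grin2b and Trpv4, carried narrower channel terms. Of the 25 members with a pathway annotation, 9 were placed in neuroactive ligand-receptor interaction and 4 in calcium signalling.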

How the data were processed

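RNA sequencing of 3 lidocaine and 3 control libraries was used, with groups and replicate numbers from the sample titles. The submitters' processing notes name Bowtie 0.12.2, DESeq2 and the build rn6, without roles, and do not describe the counting step. Per the file headers, both tables hold only genes the authors called significant. The authors' deposited table gives a log2 fold change of at least 1.00 in size and a p-value of at most 0.0499 for each. The first table holds log2 values deposited by the authors as log2 of normalized reads plus 1. Undoing this gave whole multiples of 1 factor per library for all 12750 values (tolerance 0.02 reads). The second holds FPKM values, deposited by the authors with no further description, and its group values were not used.

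The deposited log2 values entered limma 3.58.1 (R 4.3.3; two-sided, trend, no replicate block), after a filter at a mean of 10 normalized reads, with Benjamini-Hochberg adjustment and a threshold of 0.05. The design foresaw this unit. The pseudocount of 1 makes the fold changes of low genes too small. Members below the filter are given as recovered reads with exact Clopper-Pearson intervals, which cover counting error only. These intervals do not allow for the selection of these members as changed in the same libraries. Members and lists were chosen with earlier results of these data known. Every member is named. Those with a mean of at least 100 in the higher group have their value in each library, and at most 6 genes per surrounding list are named by adjusted p, apart from a result that is not reported here. The fit was also run on simulated data with known changes in only a part of the genes and without selection. That setting differs from the listed genes, so it is no check of the calls given here. Alternatives covered the pseudocount, filter, scaling, FPKM values, model and threshold, as well as a replicate block and leaving out each library.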

Additional observations from a re-analysis of the deposited data

How the results depend on the processing

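Of 28 members tested, all kept direction and call with a pseudocount of 0.5 or 5, without a filter, with FPKM values (pseudocount 0.1), with voom weights on recovered reads and with a replicate block, under which 28 members passed (23 lower, 5 higher). No pairing by replicate number was seen: deviations of libraries with the same number correlated at −0.0278, 0.00946 and 0.0578. The block gave 1842 calls over all listed genes, beside 1841 without it. Because the genes were selected as changed, these values cannot show whether libraries with the same number shared a culture. Without the variance trend 27 members passed, and Gabrg3 did not (adjusted p = 0.0699, limma, Benjamini-Hochberg). Leaving out each library gave 26 to 27 called members (22 to 23 lower, 4 to 5 higher) and 1767 to 1806 called genes.

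Calls over all listed genes numbered 1143 with the median of ratios (551 lower), 1123 with TMM (491 lower) and 1068 with a filter at a mean of 100 (687 lower, 381 higher), where fewer genes were tested. Called members numbered 15 (10 lower) with the median of ratios, 16 (10 lower) with TMM and 18 (2 higher) with the filter at 100. Rising members numbered 3 at a threshold of 0.01 and 3 when p-values were adjusted as for 47357 reference genes, with Gabrr2 and Kcng3 lost in both. Gabrg3 was also lost in both, which left 25 members (22 lower) at 0.01, and Kcnk13 in the second, which left 24 members (21 lower) and 1498 calls over all listed genes. The log2 fold changes that turned higher were, under TMM and the median of ratios, 0.25 and 0.16 for Scn3a, 0.22 and 0.13 for Grik2, 0.26 and 0.17 for Grin2a and 0.25 and 0.16 for Kcna3, and under TMM 0.033 for Gabrg3. These rescalings centre a list selected as changed, which by construction moves all values by about the same amount. With FPKM values the difference in the log2 ratio of Grin2a over Grin2b was 1.46 and that of Cacnb2 over Cacna1e 2.36, since the pseudocount of 0.1 FPKM is near the level of these genes. Members under the filter had no value in the other settings except without a filter.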
